A study of Mus musculus with 32 samples.

Results

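ATP-binding cassette (ABC) genes encode proteins that bind and split ATP, most of them pumps that move lipids, drugs, conjugates, peptides or porphyrins across a membrane. The genes described here are those whose mouse symbol names subfamily A, B, C, E, F or G with a number (Abca1 to Abcg8), which gave 45 of 19087 annotated genes on the arrays. They comprise 16 genes of subfamily A, 9 of B, 10 of C, 1 of E, 3 of F and 6 of G. Abcd genes and ABC proteins with other symbols (Tap1, Tap2, Cftr) stand outside this rule and are given separately.

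The series followed kidneys of C57BL/6 mice, an inbred strain, on 32 arrays through 10 stages of late fetal and postnatal life. In order of age these were day 19 of gestation (E19) and days 1, 3, 5, 7, 10, 14, 21, 28 and 35 after birth (P01 to P35), with 4 arrays at P03 and P35 and 3 at each other stage. Each array compared Cy5-labelled kidney RNA with a Cy3-labelled universal mouse reference RNA, and the source names call every kidney normal, although a protocol text repeated for the samples describes ureteral obstruction. No genotype or treatment separates the stages, and the labels give neither sex nor the number of animals, so p-values measure the spread between arrays, part of which may be technical.

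In the kidney, ABC pumps of the proximal tubule secrete drugs, urate and conjugated metabolites into urine from the apical membrane, while related pumps on the basolateral membrane return conjugates to blood. Others export cholesterol and phospholipid, move porphyrins or peptides in mitochondria and lysosomes, or act as the regulatory subunit of a potassium channel. Subfamilies E and F have no membrane part and act on ribosomes.

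Values below are log2 ratios of kidney to reference RNA, so 1 unit is 2-fold. A ratio depends on the content of the reference and does not rank the RNA amounts of different genes. Changes are later stage minus earlier stage with the standard error (SE) after ±, and adjusted p-values are from limma with Benjamini-Hochberg adjustment over all genes, with 0.05 as the threshold. Of the members, 32 had a value on all arrays and 41 could be tested between P35 and E19. Abca14, Abca16, Abcb5 and Abcc12 could not, having values on 18, 1, 3 and 10 arrays at their best probe. Arrays had 16194 to 17983 genes with a value. Proximal tubule markers (array medians 4.29 to 6.60) and distal nephron markers (5.09 to 6.28) lay above 0 on 32 of 32 arrays, and podocyte markers did so at 0.263 to 3.21. Array image numbers in the labels fall into 3 runs of 8, 8 and 16 arrays, a possible batch. Values with run as a block are given where they change a call between 2 stages. Xist, the RNA of the inactive X chromosome, was at 1.92 to 2.72 on some arrays and at -7.10 to -4.63 on the others, so arrays differ in the sex of the kidneys. In whole-kidney RNA, fewer cells of a type and less RNA per cell cannot be told apart.

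Several risen members lie next to each other in the genome, and the sequences before their transcript starts are shown for that reason. Abcb1a, Abcb1b and Abcb4 stand in a row on chromosome 5 (GRCm38.p6, 8567091 to 8959226). Abca17 and Abca3 run in opposite directions from starts close to each other on chromosome 17, and their gene spans share 138 bases. The windows shown for these 2 do not overlap and have 463 bases between them. The windows shown for Abca17 and Abca8a lie inside their gene spans, which end at 24352058 and 110097580. Abca8a is the member with the largest rise, and Abcg5 fell while Abcg8, from whose start it diverges, did not pass the test. The windows are RefSeq's, 250 bases before to 50 bases after the start in GRCm38.p6, at chr5:8566841-8567140 (plus strand) for Abcb1a, chr5:8797897-8798196 (plus strand) for Abcb1b, chr5:8893471-8893770 (plus strand) for Abcb4, chr17:24351010-24351309 (minus strand) for Abca17, chr17:24351773-24352072 (plus strand) for Abca3, chr11:110095888-110096187 (minus strand) for Abca8a and chr17:84682962-84683261 (minus strand) for Abcg5. Capitals mark matches on either strand to the motifs searched: TATAAA for the TATA box, the promoter box CCAAT, the GC box GGGCGG, the antioxidant response core TGACNNNGC, the E-box letters CACGTG, the nuclear receptor half-site AGGTCA and the HNF1 palindrome. Read on the other strand, AGGTCA shares the letters TGAC with TGACNNNGC, so 1 stretch can match both.
Abcb1a: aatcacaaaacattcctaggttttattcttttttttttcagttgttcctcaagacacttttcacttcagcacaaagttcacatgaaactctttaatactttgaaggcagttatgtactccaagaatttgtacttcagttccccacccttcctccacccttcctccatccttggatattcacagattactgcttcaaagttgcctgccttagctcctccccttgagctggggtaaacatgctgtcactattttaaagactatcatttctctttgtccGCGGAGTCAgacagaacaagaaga
Abcb1b: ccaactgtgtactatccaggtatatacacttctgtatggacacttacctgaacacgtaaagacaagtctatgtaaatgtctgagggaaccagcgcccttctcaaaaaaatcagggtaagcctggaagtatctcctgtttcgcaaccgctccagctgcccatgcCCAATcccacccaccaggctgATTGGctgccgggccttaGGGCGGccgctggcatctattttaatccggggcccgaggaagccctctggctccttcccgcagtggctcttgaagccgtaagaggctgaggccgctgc
Abcb4: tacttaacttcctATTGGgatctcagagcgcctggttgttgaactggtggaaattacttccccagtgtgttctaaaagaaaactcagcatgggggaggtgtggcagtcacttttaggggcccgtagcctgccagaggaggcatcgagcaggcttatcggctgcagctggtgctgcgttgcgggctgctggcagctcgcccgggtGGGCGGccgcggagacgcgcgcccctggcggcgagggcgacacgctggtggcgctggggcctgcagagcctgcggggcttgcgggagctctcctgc
Abca17: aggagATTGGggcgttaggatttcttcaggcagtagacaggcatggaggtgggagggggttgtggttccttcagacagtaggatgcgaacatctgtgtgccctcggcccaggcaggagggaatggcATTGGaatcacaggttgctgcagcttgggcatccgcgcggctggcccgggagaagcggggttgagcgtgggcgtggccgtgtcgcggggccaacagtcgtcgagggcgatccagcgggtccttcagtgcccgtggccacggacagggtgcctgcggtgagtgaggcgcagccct
Abca3: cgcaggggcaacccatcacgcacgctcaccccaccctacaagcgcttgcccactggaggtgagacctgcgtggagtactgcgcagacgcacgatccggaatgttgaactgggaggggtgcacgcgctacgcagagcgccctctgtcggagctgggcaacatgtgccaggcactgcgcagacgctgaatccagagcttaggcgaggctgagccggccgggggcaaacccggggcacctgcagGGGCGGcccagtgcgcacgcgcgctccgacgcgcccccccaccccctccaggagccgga
Abca8a: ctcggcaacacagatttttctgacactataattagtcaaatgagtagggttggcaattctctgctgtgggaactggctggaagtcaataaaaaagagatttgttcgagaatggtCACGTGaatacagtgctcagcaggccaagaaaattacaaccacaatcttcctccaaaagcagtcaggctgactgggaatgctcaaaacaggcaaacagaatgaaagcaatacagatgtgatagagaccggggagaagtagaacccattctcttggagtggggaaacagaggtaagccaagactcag
Abcg5: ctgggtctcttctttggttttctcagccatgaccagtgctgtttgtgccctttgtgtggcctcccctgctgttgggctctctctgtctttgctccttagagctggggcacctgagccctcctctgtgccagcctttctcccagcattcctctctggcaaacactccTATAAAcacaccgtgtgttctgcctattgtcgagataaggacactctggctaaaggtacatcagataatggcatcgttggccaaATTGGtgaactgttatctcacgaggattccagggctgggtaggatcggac

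Windows were given for 37 members, 43 windows in all. GGGCGG was found in 48.8% of them and in 35.7% of all 32851 windows, and CACGTG in 14% and 7.15%. The other shares were nearer each other: TATAAA 16.3% and 13.6%, CCAAT 37.2% and 37.4%, TGACNNNGC 16.3% and 12.4%, AGGTCA 16.3% and 16.3%. The HNF1 palindrome was in 0 member windows and in 0.00913% of all windows. Of the 3 neighbours on chromosome 5, Abcb1b and Abcb4 held GGGCGG and CCAAT and the Abcb1a window held neither. A match describes letters only.

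The series asked how transcripts of the maturing kidney change after birth. Across the 10 stages, 19 of 41 members (46.3%) differed by the moderated F test, close to the 43.6% of all genes tested. Between P35 and E19, 14 members rose (34.1%) and 4 fell (9.76%), against 21.2% and 19% of all genes, and in either direction 18 did (43.9%), against 40.2%. The members' median change was 0.335, against 0.061 over all genes. Single arrays of P35 and E19 did not overlap for 16 of 41 members (39%), and for 43.1% of all genes. The 14 that rose were Abca3, Abca4, Abca5, Abca8a, Abca9, Abca13, Abca17, Abcb1a, Abcb1b, Abcb4, Abcb6, Abcb9, Abcc4 and Abcg2. The 4 that fell were Abcc8, Abcg3, Abcg4 and Abcg5.

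**Figure D1:**
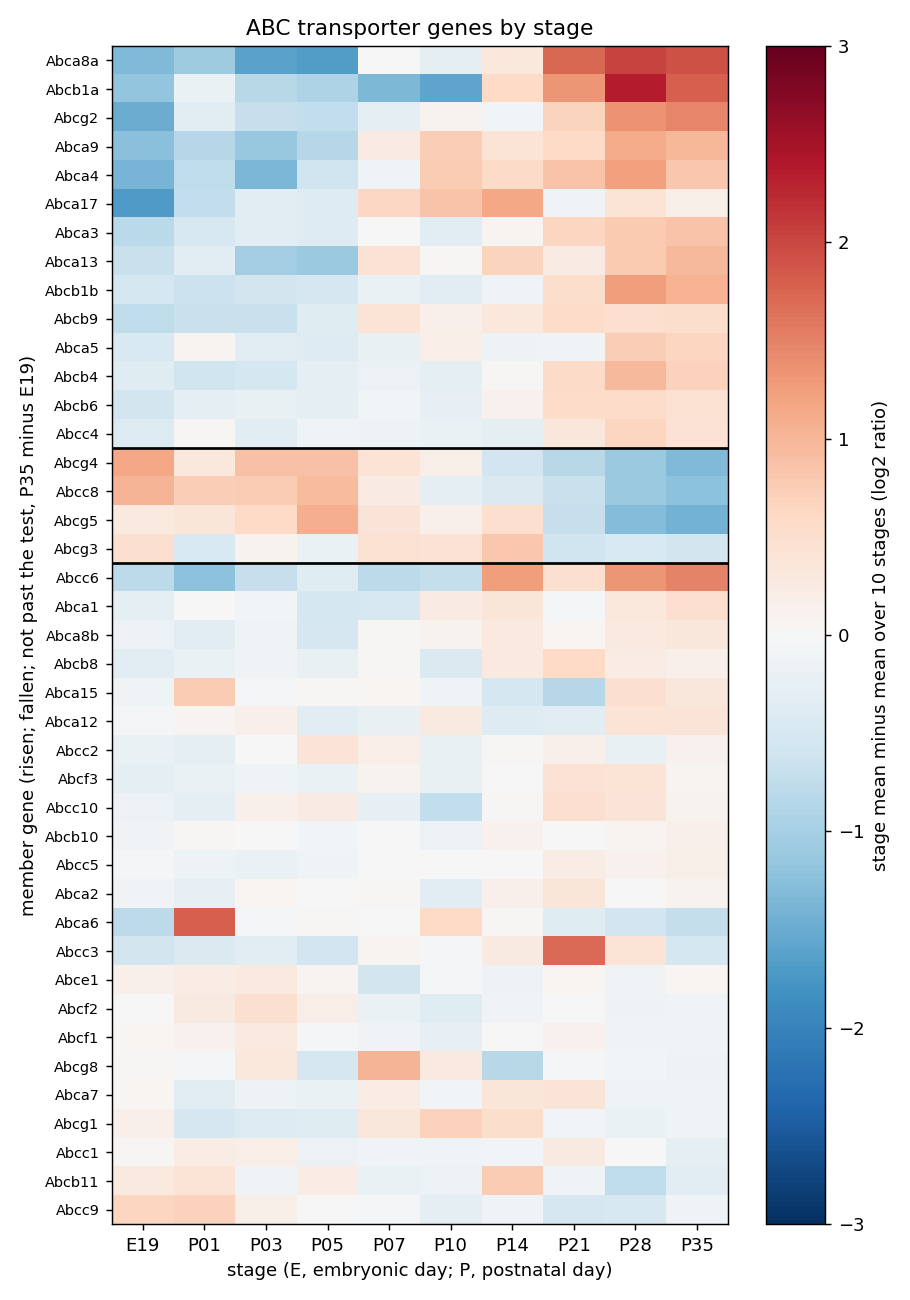
Stage means of the 41 tested ABC genes, each centred on its own mean over the 10 stages (colour, log2 ratio; columns, stages from E19 to P35). Black lines part the 14 members that rose, the 4 that fell and those not past the test between P35 and E19; Abca8a, Abcb1a and Abcg2 run from blue to red and Abcg4, Abcc8 and Abcg5 from red to blue.

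**Figure D2:**
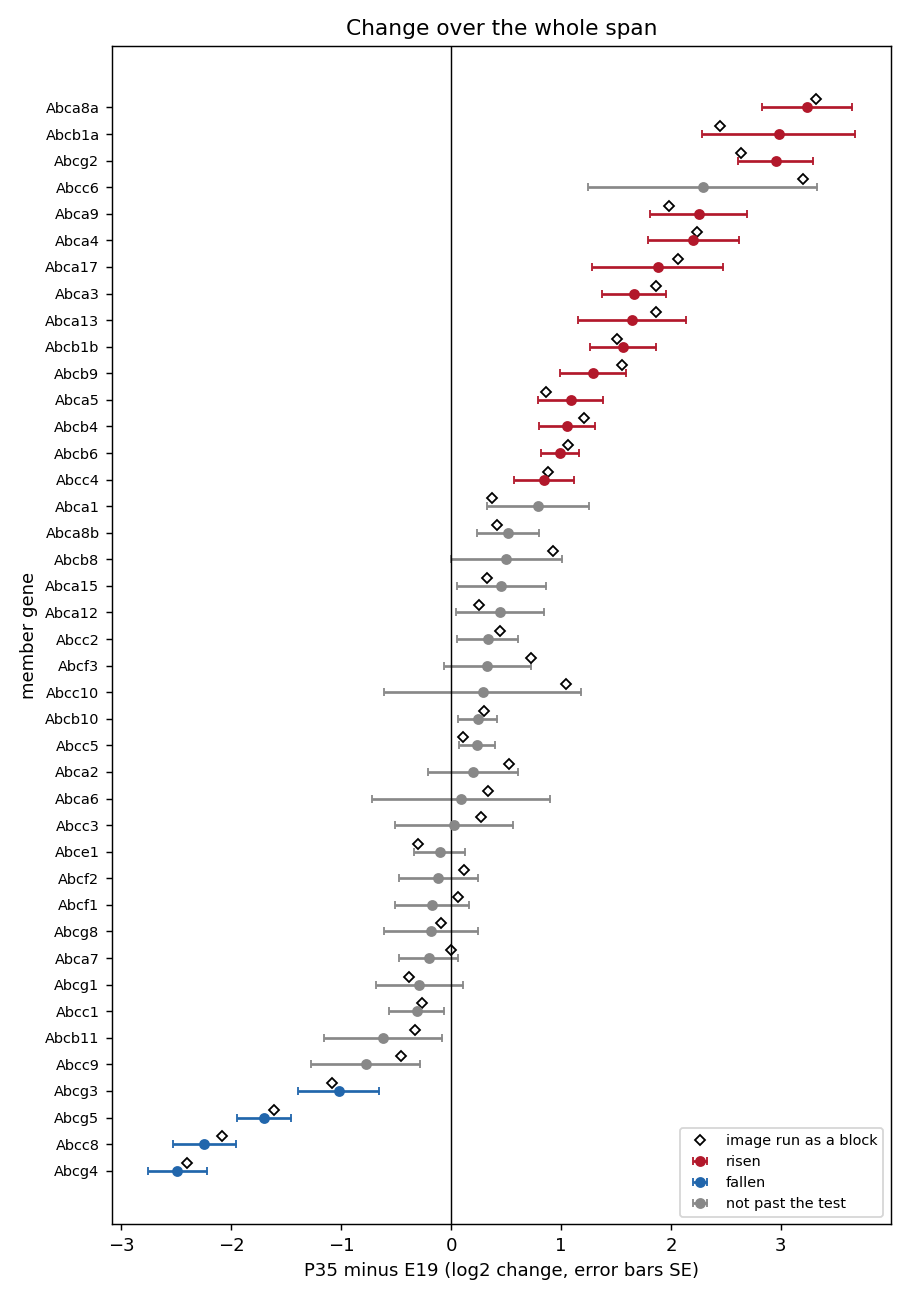
P35 minus E19 (log2 change, horizontal axis, SE as bars) for each of the 41 tested members, ordered by size. Filled points are the fit without a batch term and open diamonds the fit with image run as a block; Abcc6, at 2.29 without the block and 3.20 with it, is the grey point among the largest rises.

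Of the genes of efflux pumps for drugs and urate, Abcg2, Abcb1a, Abcb1b and Abcc4 rose between P35 and E19 and Abcc2 did not pass. The exporters Abcc1, Abcc3, Abcc5 and Abcc10, described further below, did not pass between these stages either. Of all genes, 21.2% rose. Abcg2, the breast cancer resistance protein, which secretes urate and many drugs, had ratios of 4.02, 4.84, 4.61 and 4.55 on the P35 arrays, against 1.38, 2.16 and 1.12 on the E19 arrays. The groups lay far apart and did not overlap. The change was 2.95 ± 0.34 (7.74-fold, adjusted p = 1.26e-07), and its 2 probes gave 2.73 and 3.18. Stage means were 1.55 at E19, 2.72 at P01, 2.34 at P03, 2.30 at P05, 2.76 at P07, 3.15 at P10, 2.96 at P14, 3.70 at P21, 4.39 at P28 and 4.50 at P35. The step to P01 was 1.17 ± 0.37 (adjusted p = 0.124), and it passed the test with run as a block (0.99 ± 0.23, adjusted p = 0.0175).

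Abcb1a and Abcb1b, the 2 mouse genes of P-glycoprotein, which exports lipophilic drugs, both rose. Abcb1a had 0.96, 0.60, 2.16 and 0.90 at P35, against -2.47, -0.11 and -2.89 at E19, with 1 E19 array well above the other 2. The change was 2.98 ± 0.69 (7.90-fold, adjusted p = 0.00125), and 2.45 ± 0.57 with the block. Its stage means stayed between -2.22 and -0.84 from E19 to P10. They then stood at -0.05 at P14, 0.68 at P21, 1.72 at P28 and 1.16 at P35. Only 2 arrays had a value at P07 and at P10, none of them of run 3. Single arrays spread in the early stages, with 0.29 on P01 array 3 and -0.11 on E19 array 2, both of run 3. Arrays of run 3 lay 0.42 above their stage means on average, and those of run 1 lay at -0.65. The part of run in this profile was not tested. Abcb1b had -2.23, -2.46, -1.27 and -3.00 at P35, against -4.08, -3.14 and -4.19 at E19. Every P35 array lay above every E19 array, by a small margin between the nearest 2, and the change was 1.57 ± 0.30 (adjusted p = 0.000151). Its 3 probes gave 1.19, 1.61 and 1.90, the first of them not past the test. The 2 genes are close copies, so a probe may read RNA of both.

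Abcb4, whose product moves phosphatidylcholine into bile in the liver, lies beside them and rose by 1.05 ± 0.26 (adjusted p = 0.00162). Its ratios were -1.35, -1.87, -0.68 and -2.11 at P35, against -2.37, -2.79 and -2.50 at E19, all below those of the reference RNA. Its other probe, with values on 31 arrays, gave 0.52 ± 0.50 (adjusted p = 0.451). The bile salt pump gene Abcb11 did not pass (-0.62 ± 0.54, adjusted p = 0.388), with -0.02, -0.50, -0.30 and 0.19 at P35 inside the spread of 1.77, -1.14 and 0.75 at E19.

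Among the multidrug resistance-associated proteins, which export glutathione, glucuronide and sulfate conjugates, Abcc4 rose and Abcc2 did not pass. Abcc4, an apical pump for urate and cyclic nucleotides, had 0.92, 0.35, 1.31 and -0.55 at P35, against -0.44, -0.15 and -0.42 at E19. P35 array 4 lay below all E19 arrays, so the groups overlapped, and the change of 0.85 ± 0.27 (adjusted p = 0.0154) did not pass without P35 array 1, without P35 array 3 or without E19 array 1. Abcc2, an apical pump of the proximal tubule, had 5.39, 4.91, 5.35 and 5.12 at P35, against 4.93, 5.45 and 4.19 at E19. Its stage means stayed within 4.80 and 5.45 throughout, high over the reference from E19 on, and P35 minus E19 was 0.34 ± 0.28 (adjusted p = 0.363). Abcc1, a widely expressed basolateral pump, had a change of -0.31 ± 0.25 (adjusted p = 0.339) and Abcc10 of 0.29 ± 0.89 (adjusted p = 0.835).

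Abcc5, an exporter of cyclic nucleotides, differed between its probes. The probe for transcript NM_176839 rose by 1.00 ± 0.17 (adjusted p = 4.7e-05 over all probes), while the 2 probes for NM_013790 gave -0.37 ± 0.25 and 0.08 ± 0.20, neither past the test. Their mean, the value used for the gene, was 0.24 ± 0.16 (adjusted p = 0.267).

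Abcc3, a basolateral pump that returns conjugates to blood, had its highest stage mean at P21 and was the 1 member of 42 that passed between P35 and P21 (0.882% of all genes passed, 0.488% up and 0.395% down). Its ratios were 0.85, -1.92, 0.45 and -2.32 at P35, against 1.23, 1.86 and 1.38 at P21. The fall was -2.23 ± 0.53 (adjusted p = 0.0378, or -2.14 ± 0.52, adjusted p = 0.0294, with run as a block). At P28 the arrays had -0.17, -0.47 and 1.27. Xist stood at 2.13, -5.81, 2.51 and -5.36 on the same 4 P35 arrays, at 1.97, 1.92 and 1.98 on the P21 arrays and at -5.42, -5.48 and 2.28 on the P28 arrays. Each array of these stages with Xist above 0 had Abcc3 at 0.45 or more, and each with Xist below 0 had it at -0.17 or less. With the Xist ratio as a covariate the fall no longer passed, nor did it without any 1 P21 array, without P35 array 2 or 4, without E19 array 3, with P35 and P21 alone in the fit, or within run 3. Abcc4 at P35 was also lower on both arrays with Xist below 0 (0.35 and -0.55) than on the other two (0.92 and 1.31), and kept its call with Xist as a covariate. No group was formed by sex, and a difference between sexes was not tested.

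**Figure D3:**
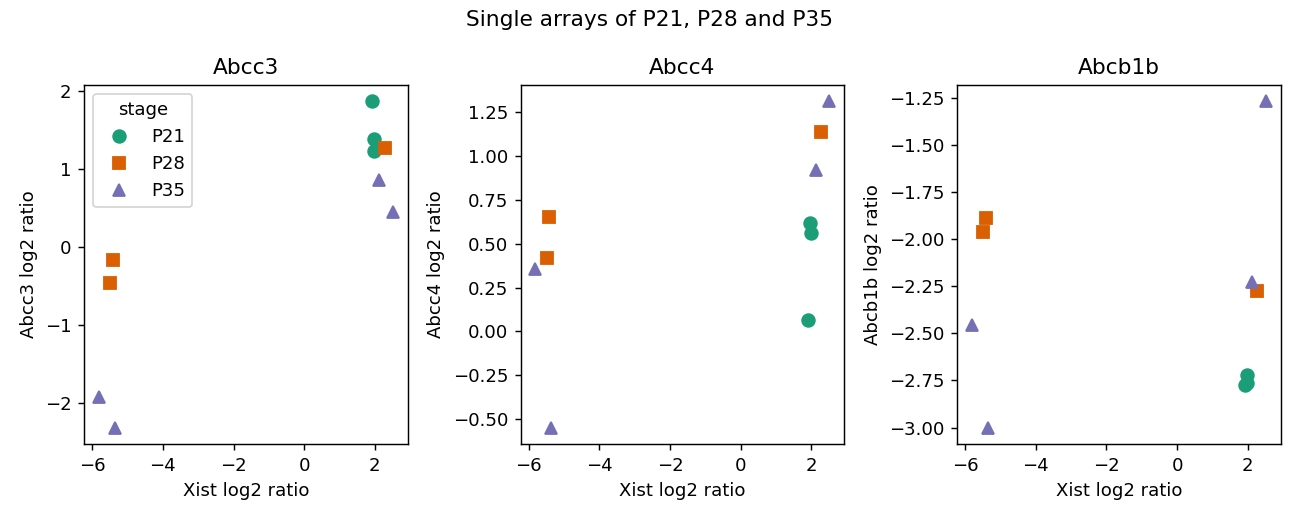
Abcc3, Abcc4 and Abcb1b (vertical axes, log2 ratio) against Xist (horizontal axis, log2 ratio) on the single arrays of P21 (circles), P28 (squares) and P35 (triangles). For Abcc3 the 2 P35 arrays with Xist at -5.81 and -5.36 lie lowest, at -1.92 and -2.32, and the 3 P21 arrays, all with Xist near 2, lie between 1.23 and 1.86.

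The largest rise of any tested member was in Abca8a, a subfamily A gene of the tandem group on chromosome 11 whose products are lipid transporters. It had 3.32, 3.53, 3.70 and 2.39 at P35, against -0.21, -0.02 and 0.22 at E19. The groups were separated by more than either one's range, and the change was 3.24 ± 0.41 (9.44-fold, adjusted p = 4.38e-07). Stage means lay between -0.35 and 0.26 up to P05, at 1.34, 1.05 and 1.65 at P07, P10 and P14, and at 3.04, 3.36 and 3.23 at P21, P28 and P35. It also passed between P21 and P07 (1.71 ± 0.44, adjusted p = 0.00758).

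In genome order on chromosome 11 its group runs Abca8b, Abca8a, Abca9, Abca6, Abca5, from 109932206 to 110337723. Abca9, 3168 bases from Abca8a, had 2.49, 2.41, 2.38 and 3.60 at P35, against 0.07, 1.12 and 0.21 at E19, and rose by 2.25 ± 0.44 (adjusted p = 0.000173). Abca5, a lysosomal member, rose by 1.09 ± 0.30 (adjusted p = 0.00452), with -1.12, -0.92, -0.71 and -0.85 at P35 against -2.63, -1.49 and -1.85 at E19. Both had groups that did not overlap, and the Abca5 call was lost without E19 array 1. Abca8b (0.52 ± 0.28, adjusted p = 0.155) and Abca6 (0.09 ± 0.81, adjusted p = 0.948) did not pass. So 3 of these 5 neighbours rose, where 21.2% of all genes did. Abca8a and Abca8b are near copies, and how their probes divide the RNA was not tested. Abca6 had 4.98, 0.50 and 4.30 at P01 and so spread widely within 1 stage, against 0.04, 1.27 and 0.71 at E19.

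Marker genes of fat cells differed over the same span as these rises. Of 6 adipose markers tested, 5 rose and 1 fell between P35 and E19, where 21.2% and 19% of all genes did. The list's array medians were 1.98 to 5.62 at P35 and 0.126 to 0.462 at E19. With the adipose median as a covariate, 17 of the 18 members called remained called and Abcg3 was lost, while over all genes 5117 of 17119 passed with it (29.9%), against 6883 without it. The part of fat cells in these changes was not tested. The P35 array with the lowest adipose median (1.98) had Abca8a at 3.70 and Abca9 at 2.38, beside 2.39 to 3.53 and 2.41 to 3.60 on the other P35 arrays.

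**Figure D4:**
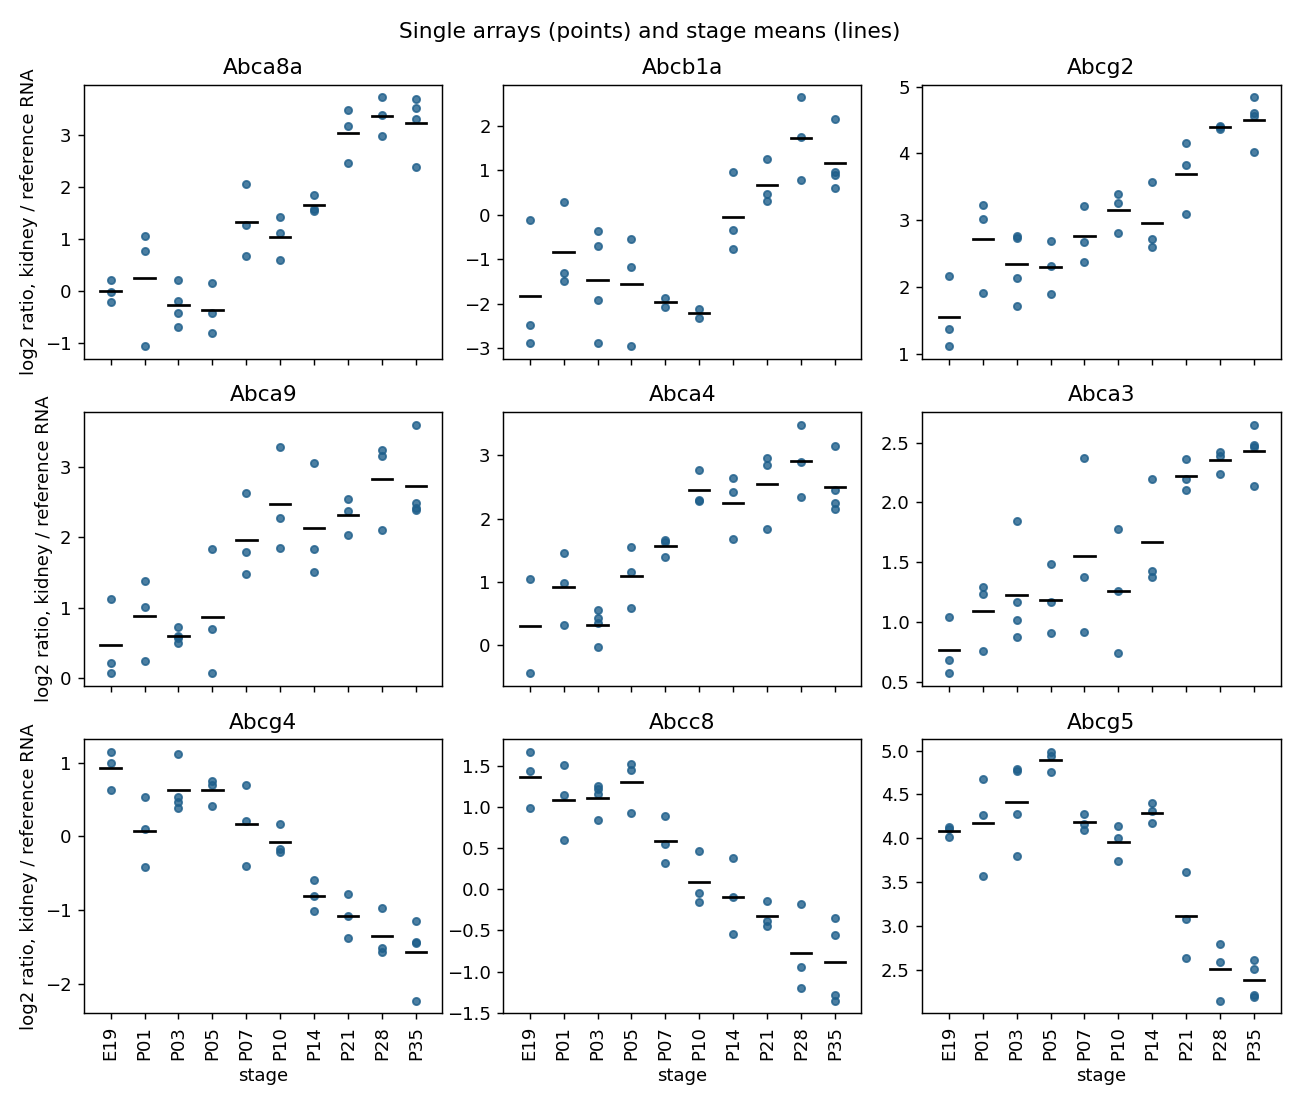
Log2 ratios on single arrays (points) and stage means (lines) from E19 to P35 for 6 members that rose and 3 that fell. Stage means of Abca8a are low up to P05 and those of Abcb1a up to P10, and both are higher from P21. Single arrays of Abcb1a spread in the early stages, reaching 0.29 at P01. Abcg2 has a stage mean of 1.55 at E19 and 4.50 at P35. Abcg5 has stage means of 3.96 to 4.89 up to P14 and of 3.11 or lower from P21.

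Of the remaining subfamily A genes tested, 4 rose, where 21.2% of all genes did. Abca1, Abca2, Abca7, Abca12 and Abca15, given further below, did not pass. Abca3, a phospholipid pump best known from lung surfactant, had 2.48, 2.65, 2.46 and 2.14 at P35, against 1.04, 0.57 and 0.69 at E19, with a change of 1.66 ± 0.29 (adjusted p = 4.21e-05). No array of either group came near the other group. Of its probes, 3 were measured on all arrays and gave 1.40, 2.03 and 1.57, the last not past the test. Abca17, which starts beside it on the opposite strand, had 1.80, 1.80, 1.88 and 0.17 at P35, against -1.16 and 0.23 on the 2 E19 arrays with a value. The groups overlapped by 1 array, and the change of 1.88 ± 0.60 (adjusted p = 0.0135) has no test without E19 array 1 or 3, since 1 measured E19 array is then left. Its highest stage mean was at P14 (2.41), so its profile was not that of Abca3, which was highest at P35.

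Abca4, a flippase of retinal lipids in the eye, had 3.16, 2.46, 2.24 and 2.15 at P35, against -0.45 and 1.04 on the 2 E19 arrays measured. The change was 2.20 ± 0.41 (4.61-fold, adjusted p = 0.000125). It too has no test without E19 array 1 or 3. Abca13, a very long ABC gene, had 5.81, 4.54, 6.24 and 6.33 at P35, against 3.77, 3.09 and 5.39 at E19. These overlapped, and the change of 1.65 ± 0.49 (adjusted p = 0.00867) did not pass without E19 array 2.

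The exporters of cholesterol and other lipids in subfamilies A and G named next did not pass the test. Abca1, which loads cholesterol onto apolipoprotein A-I, had 0.09, 0.99, 1.27 and 0.91 at P35 and -0.37, 0.77 and -0.33 at E19, a change of 0.79 ± 0.46 (adjusted p = 0.181). Abcg1, which loads it onto high-density lipoprotein, had a change of -0.29 ± 0.39 (adjusted p = 0.601). Abca7 (-0.20 ± 0.27) and Abca2 (0.20 ± 0.41), phospholipid pumps studied mainly in brain and macrophages, and Abca12 (0.45 ± 0.40), of skin lipids, did not pass either, nor did Abca15 (0.46 ± 0.41).

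Abcg5 and Abcg8 form a heterodimer that exports plant sterols and cholesterol in gut and liver. Abcg5 had 2.61, 2.19, 2.51 and 2.22 at P35, against 4.10, 4.13 and 4.02 at E19, and fell by 1.70 on the log2 scale (SE 0.25, adjusted p = 3.75e-06). Arrays of each stage agreed closely and the stages stood well apart. Its stage means were 4.08 at E19, 4.89 at P05 and 4.29 at P14, then 3.11 at P21, 2.51 at P28 and 2.38 at P35, and P21 minus P07 was -1.07 ± 0.26 (adjusted p = 0.00592). Abcg8, whose best probe had values on 28 arrays, had 0.19, -0.37, -0.51 and -0.23 at P35, against 0.26, -0.52 and 0.11 at E19 (-0.18 ± 0.43, adjusted p = 0.772). A promoter window of Abcg8 shares 209 bases with the Abcg5 window shown above, on the opposite strand, and the gene spans overlap by 6710 bases.

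Abcg4, a sterol exporter of the brain, had the largest fall of any tested member. It had -1.44, -2.23, -1.16 and -1.43 at P35, against 1.15, 0.99 and 0.63 at E19, a change of -2.49 ± 0.27 (5.61-fold, adjusted p = 4.44e-08). The groups did not overlap, and P21 minus P07 also passed (-1.25 ± 0.29, adjusted p = 0.00338). Abcg3, a rodent gene related to Abcg2, had -2.82, -3.46, -2.39 and -3.03 at P35, against -1.90, -2.22 and -1.59 at E19 (-1.02 ± 0.37, adjusted p = 0.0274). That call was lost without E19 array 1 or 3 or P35 array 2 or 4.

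Of 12 other genes of cholesterol efflux tested, 3 rose and 2 fell between P35 and E19, where 21.2% and 19% of all genes did, with a list median of -0.07 against 0.061 over all genes. Nr1h3 (LXR alpha), a sterol-sensing receptor that activates Abca1 and Abcg5, rose by 2.79 ± 0.22 (adjusted p = 2.26e-10), its partner Rxra by 0.95 ± 0.21 and Npc1, which releases lysosomal cholesterol, by 0.78 ± 0.22. The lipoprotein receptor gene Scarb1 (-1.24 ± 0.33) and the lipid synthesis regulator Srebf1 fell.

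Abcc8 and Abcc9 encode the sulfonylurea receptors SUR1 and SUR2, which regulate ATP-sensitive potassium channels. Abcc8 had -0.34, -1.28, -0.55 and -1.35 at P35, against 1.67, 0.98 and 1.44 at E19, and fell by 2.24 on the log2 scale (SE 0.29, adjusted p = 5.54e-07). All P35 arrays were below 0 and all E19 arrays above it. Its stage means were 1.36, 1.09, 1.11 and 1.30 from E19 to P05, 0.59 at P07, 0.09 at P10, -0.09 at P14, -0.33 at P21, -0.77 at P28 and -0.88 at P35. Abcc9 had 6.29, 6.49, 5.96 and 7.23 at P35, against 8.36, 6.67 and 6.78 at E19, and did not pass (-0.77 ± 0.50, adjusted p = 0.227). Of the 2 channel pore genes, Kcnj8 fell (-1.02 ± 0.34, adjusted p = 0.0166) and Kcnj11 did not pass. Smooth muscle and pericyte markers fell over the same span in 5 of 9 cases, against 19% of all genes. Array medians of these markers were -0.40 to 0.23 at P35 and 1.30 to 1.56 at E19. Their part in these changes was not tested.

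Mitochondrial and lysosomal members of subfamily B were split. Abcb6, a porphyrin transporter, had 1.12, 1.46, 1.20 and 1.27 at P35, against 0.46, 0.06 and 0.30 at E19, a change of 0.99 ± 0.17 (1.99-fold, adjusted p = 4e-05). Its arrays were tight within each stage and did not overlap. It also passed between P21 and P07 (0.64 ± 0.18, adjusted p = 0.0165). Abcb9, a lysosomal peptide transporter, had 0.25, -0.72, -0.58 and -0.69 at P35, against -1.70, -1.86 and -1.63 at E19 (1.29 ± 0.30, adjusted p = 0.00102). P07 minus P01 was 1.07 ± 0.32 (adjusted p = 0.0395), the 1 call among 41 members over that span, where 7.39% of all genes passed, 4.83% up and 2.56% down. With run as a block this step was smaller, 0.61 ± 0.20 (adjusted p = 0.0478). P01 had no array of run 2 and P07 had none of run 3. That call was lost without P01 array 2 or 3 or any 1 P07 array, and with the adipose marker median described above as a covariate.

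Abcb10, of mitochondrial heme metabolism, had a change of 0.24 ± 0.18 (adjusted p = 0.301). Abcb8, of the mitochondrial inner membrane, had 0.99, 0.87, 0.86 and 0.09 at P35, against 0.91, -0.74 and 0.43 at E19, and its 0.50 ± 0.50 did not pass without the run block and did with it (0.92 ± 0.30, adjusted p = 0.0144). Among genes of heme and iron-sulfur synthesis, 11 of 17 tested rose and 0 fell, where 21.2% and 19% of all genes did. The list median was 0.80, against 0.061 over all genes. The risen genes included Uros, an enzyme of porphyrin synthesis (2.21 ± 0.24), and Alas1, the rate-limiting enzyme of heme synthesis outside red cells (1.76 ± 0.25). Also among them were Fech, which inserts iron (1.71 ± 0.20), and the scaffold Iscu (1.76 ± 0.17).

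Abcc6, whose loss causes ectopic mineralisation and whose product acts in release of ATP from the liver, was the largest rise that did not pass. It had 3.32, 4.55, 4.31 and 2.17 at P35, against 1.14 and 1.46 on the 2 E19 arrays with a value. These did not overlap, and the change was 2.29 ± 1.04 (adjusted p = 0.0835). Arrays of run 1 lay 1.18 above their stage means on average, and those of runs 2 and 3 lay at -0.47 and -0.38. With run as a block the change was 3.20 ± 0.83 (adjusted p = 0.00278), and within run 2 it was 1.86 with 1 array a stage. At P07 the single arrays were 0.93, -0.54 and 3.55, the last from run 1. Of 5 other genes of pyrophosphate and mineralisation tested, Nt5e (2.89 ± 0.48), which makes adenosine from AMP, and Alpl (2.70 ± 0.20), which splits pyrophosphate, rose and 0 fell. That list's median was 0.60, against 0.061 over all genes, of which 21.2% rose and 19% fell.

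**Figure D5:**
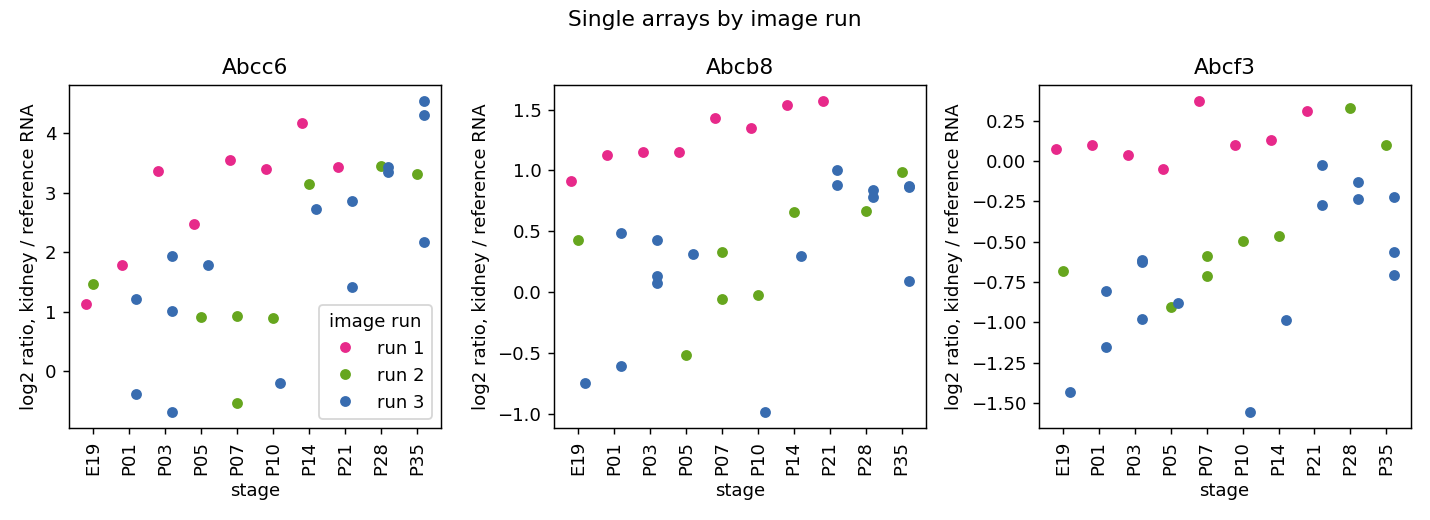
Log2 ratios of Abcc6, Abcb8 and Abcf3 on single arrays by stage, coloured by image run. Run 1 arrays, of which P28 and P35 have none, lie high within most stages, and between P35 and E19 these 3 members passed with run as a block and did not without it.

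None of the 4 ribosome-acting members passed between P35 and E19 without the run block. Abce1, which recycles ribosomes, had a change of -0.10 ± 0.23 (adjusted p = 0.763), Abcf1 of -0.17 ± 0.34 and Abcf2 of -0.11 ± 0.36. Abcf3 had 0.33 ± 0.40 (adjusted p = 0.545), and 0.73 ± 0.19 (adjusted p = 0.00332) with run as a block. Of 8 other genes of ribosome recycling and initiation tested, 0 rose and 2 fell, Eif2ak4, the kinase activated by uncharged tRNA (-0.55 ± 0.18), and Pelo, which rescues stalled ribosomes (-0.39 ± 0.15). That list's median was -0.15, against 0.061 over all genes, of which 21.2% rose and 19% fell.

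Shorter spans held few calls. Between P01 and E19, 0 of 41 members passed (1.45% of all genes, 0.842% up and 0.606% down) by limma, with 4 members (9.76%) and 12.4% of all genes at unadjusted p under 0.05. Between P21 and P07, 6 of 41 passed (14.6%), against 15.3% of all genes (6.25% up and 9.08% down): Abca8a, Abcb1a and Abcb6 rose, and Abcc8, Abcg4 and Abcg5 fell. Abcb1a had 1.26, 0.46 and 0.31 at P21, against -2.07 and -1.88 on the 2 P07 arrays measured (2.65 ± 0.83, adjusted p = 0.0313). With run as a block this step was smaller, 1.98 ± 0.69 (adjusted p = 0.0473). P07 had no array of run 3 and P21 had 2. Without P07 array 2 only 1 member rose over that span, without P21 array 2 only 1 fell, and without P35 array 3 or 4, which enter through the shared spread, 5 rose. Without P01 array 1, Abcg2 rose between P01 and E19, and without P01 array 2, Abca6 did. The Abcb1a call between P21 and P07 was lost without P21 array 1 or 2. It had no test without P07 array 2 or 3, since 1 measured P07 array was then left. With zeros kept as ratios of 0, and with the Xist ratio as a covariate, the Abcb1a call was also lost. Xist stood at -5.87 and -5.26 on P07 arrays 2 and 3 and at 1.97, 1.92 and 1.98 on the P21 arrays. The part of sex in this Abcb1a step was not tested. The Abcc8 call was lost without P07 array 2 or 3, P14 array 2 or any 1 P21 array, the Abcb6 call without P07 array 1 or P21 array 2 or 3, the Abca8a call without P07 array 2 and the Abcg5 call without P21 array 2. These spans share arrays with each other and with the whole span. With image run as a block, 24 of 41 members differed over the stages, adding Abcb8, Abcc5, Abcc6, Abce1 and Abcf3. Under the same block 58.3% of all genes did. Between P35 and E19, 21 of 41 passed with it, against 49.6% of all genes, the 3 added members being Abcb8, Abcc6 and Abcf3.

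Over the 10 stage means, the members most like Abca8a were Abca3 (Pearson r = 0.951), Abcc5 (0.945) and Abcb4 (0.945), and those most like Abcb1a were Abcb6 (0.906), Abcb1b (0.893) and Abcb4 (0.891). Abcg4 and Abcc8 were most like each other (0.966), each followed by Abcg5 (0.847 and 0.858). The points share arrays, and the values are a description.

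Of 6 ABC genes outside the rule that were tested, 2 rose between P35 and E19 and 0 fell. Their list median was 0.77, against 0.061 over all genes, of which 21.2% rose and 19% fell. Abcd3, a peroxisomal transporter of fatty acids, rose by 2.85 ± 0.34 (adjusted p = 2.04e-07) and Abcd4, of lysosomal cobalamin export, by 0.87 ± 0.29 (adjusted p = 0.0173). The chloride channel gene Cftr, the peptide transporter genes Tap1 and Tap2 and the peroxisomal Abcd2 did not pass. Of 13 regulators and scaffolds of efflux pumps tested, 5 rose and 0 fell: the bile acid receptor Nr1h4 (3.03 ± 0.24), the xenobiotic receptor Nr1i2 (2.14 ± 0.47), the fatty acid receptor Ppara (1.05 ± 0.18), the apical scaffold Slc9a3r1 (1.01 ± 0.38) and the oxidative stress factor Nfe2l2. The scaffold Pdzk1 did not pass, and the list's median was 0.55, against 0.061. Proximal tubule markers rose in 4 of 8 cases over this span, with array medians of 5.50 to 6.29 at P35 and 4.29 to 4.94 at E19, and whether the members' rises follow the amount of this tubule was not tested.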

How the data were processed

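Kidney RNA at 10 stages was measured on 32 two-colour arrays. The authors deposited 1 value per probe and array, read here as the log10 ratio of kidney (Cy5) to reference (Cy3). Neither unit nor direction is stated in the sources used here: the unit was read from the values (-3.25 to 4.00) and the direction from kidney markers. How spots were read and normalized is not given in the sources used here. Multiplying by 3.32 turned them into log2 ratios; directions and adjusted p-values do not depend on that factor. Exact zeros (10.8% to 23.1% of an array) were treated as not measured. Spot brightness was not used, so detection was not checked, and precision is limited by how many arrays there are.

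Of 45220 probes, 33653 have 1 gene symbol in the platform annotation, 56 have several and 11511 are unnamed here; only the first kind was used. Each gene took the mean over its probes with a value on all arrays, or else its probe with values on most. The members have 82 probes, 26 of them several each, and 45 of 45 matched the RefSeq gene annotation (GRCm38.p6) by Entrez identifier. limma 3.58.1 (R 4.3.3, data.table package version 1.17.8) fitted 1 mean per stage to all genes with at least 2 values in each stage used, and was tested on simulated data. Figures used matplotlib 3.10.9 (Python 3.11.15).

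The members and gene lists were chosen with earlier results of these data known. By rule, array values were for members past the test between P35 and E19 with a log2 change of 1 or more or past a shorter span only, and list genes were at most the 4 with the largest change past the test. Other values and names stand beside them by role and were chosen after they were seen. Array numbers follow the order of deposit and pair nothing. Alternatives covered zeros, probe choice, scaling, filters, image run, array weights, adipose and Xist covariates and leaving out single arrays.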

Additional observations from a re-analysis of the deposited data

Results flagged for a closer look

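Groups of 4 arrays (P03 and P35) were checked for 1 array far from the other 3, by the gap to the nearest array over the range. Of 77 groups of member and stage, 8 stood out, and chance alone gives about 1 in 20. The values are log2 ratios. At P35, Abca12 was 0.997 on array 3 (others -0.152 to 0.0068), Abca17 was 0.173 on array 4 (others 1.80 to 1.89), Abca9 was 3.60 on array 4 (others 2.38 to 2.49), Abcb8 was 0.0906 on array 4 (others 0.862 to 0.989) and Abcb9 was 0.25 on array 1 (others -0.716 to -0.578). At P03, Abca2 was 0.891 on array 2 (others -0.0082 to 0.0959), Abcc4 was 0.0927 on array 4 (others -0.358 to -0.293) and Abce1 was -0.818 on array 2 (others -0.410 to -0.379). Abca17, Abca9 and Abcb9 are among the members that rose, and their calls held without these arrays.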

How the results depend on the processing

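No paired analysis was possible because the labels give the stages no shared replicate numbers. None of the 18 members called between P35 and E19 changed direction under any alternative run. The alternatives use the same arrays that made the calls, so a kept direction is no separate support. Counts of members called moved by more than 1.5 times as follows. With image run as a block, 1 rose between P01 and E19, where 4.01% of all genes passed. Under that block 10 members passed between P21 and P07, 7 of them up, against 20.2% of all genes. Added there were Abca3 (0.65 ± 0.22, adjusted p = 0.037), Abcb4 (1.01 ± 0.25, adjusted p = 0.00473), Abcb9 (0.61 ± 0.20, adjusted p = 0.0294) and Abcc3 (1.95 ± 0.59, adjusted p = 0.0201). Within image run 3, 9 rose between P35 and E19 and 0 fell between P35 and P21; that run holds 1 E19 array, which is assumed to vary like the other stages. With array weights, 33 passed the F test, 2 rose and 1 fell between P01 and E19, 3 rose and 1 fell between P07 and P01, 8 rose between P21 and P07 and 1 rose between P35 and P21. Under these weights 80.3% of all genes passed the F test. Over those spans, in the same order, 16.8%, 12%, 22.3% and 6.87% of all genes passed in either direction. With only the 2 stages compared in the fit, 0 rose between P07 and P01, 1 fell between P21 and P07 (Abcb6, Abcg4 and Abcg5 were lost) and 0 fell between P35 and P21. Of all genes, 0.848%, 9.68% and 0.0232% passed there in either direction. With the adipose covariate 0 rose between P07 and P01, where 2.38% of all genes passed. With the Xist covariate 1 fell between P07 and P01 and 0 fell between P35 and P21, where 5.92% and 0.586% of all genes passed. The most variable probe gave 5 and quantile normalization 6 risen between P21 and P07, and genes measured on all 32 arrays gave 1 fallen between P07 and P01. In these fits 13.1%, 13.5% and 8.38% of all genes passed. Leaving out single arrays gave 0 to 1 risen between P01 and E19, 0 to 1 risen and 0 to 1 fallen between P07 and P01, 1 to 5 risen and 1 to 4 fallen between P21 and P07, and 0 to 1 risen and 0 to 1 fallen between P35 and P21. With single arrays left out, 0.316% to 1.57% of all genes passed between P01 and E19 and 4.48% to 7.78% between P07 and P01. The shares were 10.6% to 15.7% between P21 and P07 and 0.277% to 1.38% between P35 and P21. Between P35 and E19, 10 to 15 members rose and 3 to 5 fell in these fits, with 36.9% to 40.7% of all genes passing. In the F test 17 to 20 members passed, against 41.3% to 47.6% of all genes. Between P35 and E19, the mean of all measured probes, array weights and a fit of only the 2 stages each lost Abca13, the last Abcc4 too. The mean of all measured probes gained Abca8b, and the fit of only the 2 stages gained Abcc6. Array weights gained Abca1, Abcb11, Abcc2, Abcc5 and Abcc6, with 54.3% of all genes passing. Quantile normalization lost Abca13 and Abcg3 and gained Abcc9; the most variable probe lost Abca3, Abca13 and Abcc4 and gained Abcc5; zeros kept as ratios of 0 lost Abca13 and Abcb4 and gained Abca16 and Abcc6. Within run 3, Abca5, Abcb1a, Abcb1b, Abcb4, Abcc4 and Abcg3 lost the call between P35 and E19, and Abcb8 and Abcf3 gained it. Abca4 and Abca17 had no value on the E19 array of that run and so no test there. The changes within run 3 were 1.33 for Abcb1a, 0.89 for Abcb1b and 1.24 for Abcb4. All 16 called members with a value there kept their direction, but the arrays of that run had also entered the calls. Within run 3 and with arrays left out, fewer arrays enter the fit. Otherwise the cause was not tested.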
